A study of Mus musculus with 4 samples.

Results

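The genes described here are the immediate early genes and the early response genes that cells switch on when tissue is dissociated, together with the endothelial factors Klf2 and Klf4. They were chosen by symbol from a list of 46 genes and kept where at least 1 library held 20 or more counts. All 46 were kept, of 23337 gene symbols in the files. Lymphatic endothelial cells of mouse embryonic day 14.5 gave 4 RNA libraries, from wild type embryos and from embryos with a homozygous deletion, before and after culture, with no replicates. An enhancer that binds GATA2 is named in the series' title; the place of the deletion is not in the labels, and in the published study the enhancer is that of Prox1, the factor that specifies lymphatic endothelium. In both genotypes the cells before culture were sorted for LYVE1 and VECAD and against CD45 from the dorsal anterior part of all embryos of a litter, pooled. The cells after culture came from the rest of the same sort: they spent 7 days on OP9 stromal cells with the cytokines SCF, IL3 and FLT3L (100 ng/ml of each) and were sorted again for LYVE1 and VECAD, with no exclusion of CD45 stated. Cells thus passed through a sort just before lysis in all 4 groups, but only those before culture had just been taken from embryonic tissue. The labels name no targeted gene whose level could check the genotype.

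Immediate early genes are transcribed within minutes of a stimulus from factors already present in the cell, chiefly serum response factor with its ternary complex partners, CREB and NF-kB, and they need no new protein. Many encode transcription factors such as FOS, JUN and EGR1, and others encode the phosphatases, RNA decay factors and inhibitors that switch the response off again. Their mRNAs are short-lived, and enzymatic release of cells from tissue is known to raise many of them. In endothelium KLF2 and KLF4 are also held up by fluid flow, through the MEKK3 and ERK5 kinases and MEF2 factors.

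Levels are counts per 1e6 gene counts (CPM), scaled between libraries by the trimmed mean method (TMM), which assumes that most genes do not differ. Per-gene folds divide 1 level by another and carry a 95% interval for counting error; a call, higher or lower, requires that this whole interval lie beyond 2-fold. With 1 library in each group there is no replicate check and no p-value, and every comparison is between libraries. Intervals cover counting error only, because each group holds 1 library. Read pairs were also amplified without molecular identifiers and so are not independent molecules. Gene counts ran from 1694669 to 7943587 per library, fewest in the wild type library after culture. Aligned pairs that the counting placed in no feature made up 53.6% to 66.5% of all pairs before culture and 19.996% to 30.3% after it. Of the uniquely aligned pairs they made up 89.3% and 85.8% before culture and 66.7% and 74.2% after it, in wild type and mutant. Counts per kb of coding sequence were taken in 1408 olfactory and vomeronasal receptor genes, which endothelium should not use. They were 6.64 and 8.35 before culture and 0.535 and 1.62 after it, in wild type and mutant. These rates are raw counts, not scaled for the depth of a library. Multiplied by a gene's exon length, this coding rate gave the expected background. Summed over genes, that background was 16.4% and 10.3% of gene counts before culture and 3.10% and 4.04% after it, in wild type and mutant. Per kb of exon the receptor rates were lower, 1.92 and 2.42 before culture and 0.155 and 0.469 after it. Multiples of background below use the coding rate, which was chosen after seeing the data. The summed levels of 8 markers of lymphatic endothelium were 7092 to 10604 CPM in the 4 libraries; Lyve1 and Cdh5, which encode the sorted proteins, were called higher after culture in both genotypes, as was Pecam1. Prox1, Mmrn1, Reln and Pdpn were called lower in both, and Pdpn had no counts after culture in wild type.

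The 46 genes together had 8135 CPM in wild type and 9597 CPM in the mutant before culture, and 6065 CPM in wild type and 5054 CPM in the mutant after it. They made up 1.02% (95% Wilson interval 1.007 to 1.027) and 1.11% (1.11 to 1.12) of the gene counts before culture, in wild type and mutant. After culture their shares were 0.492% (0.482 to 0.503) and 0.430% (0.423 to 0.436). The mutant library was the highest of the 4 before culture and the lowest after it. In bulk samples such as these, fewer cells of a type and less RNA per cell cannot be told apart.

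**Figure D1:**
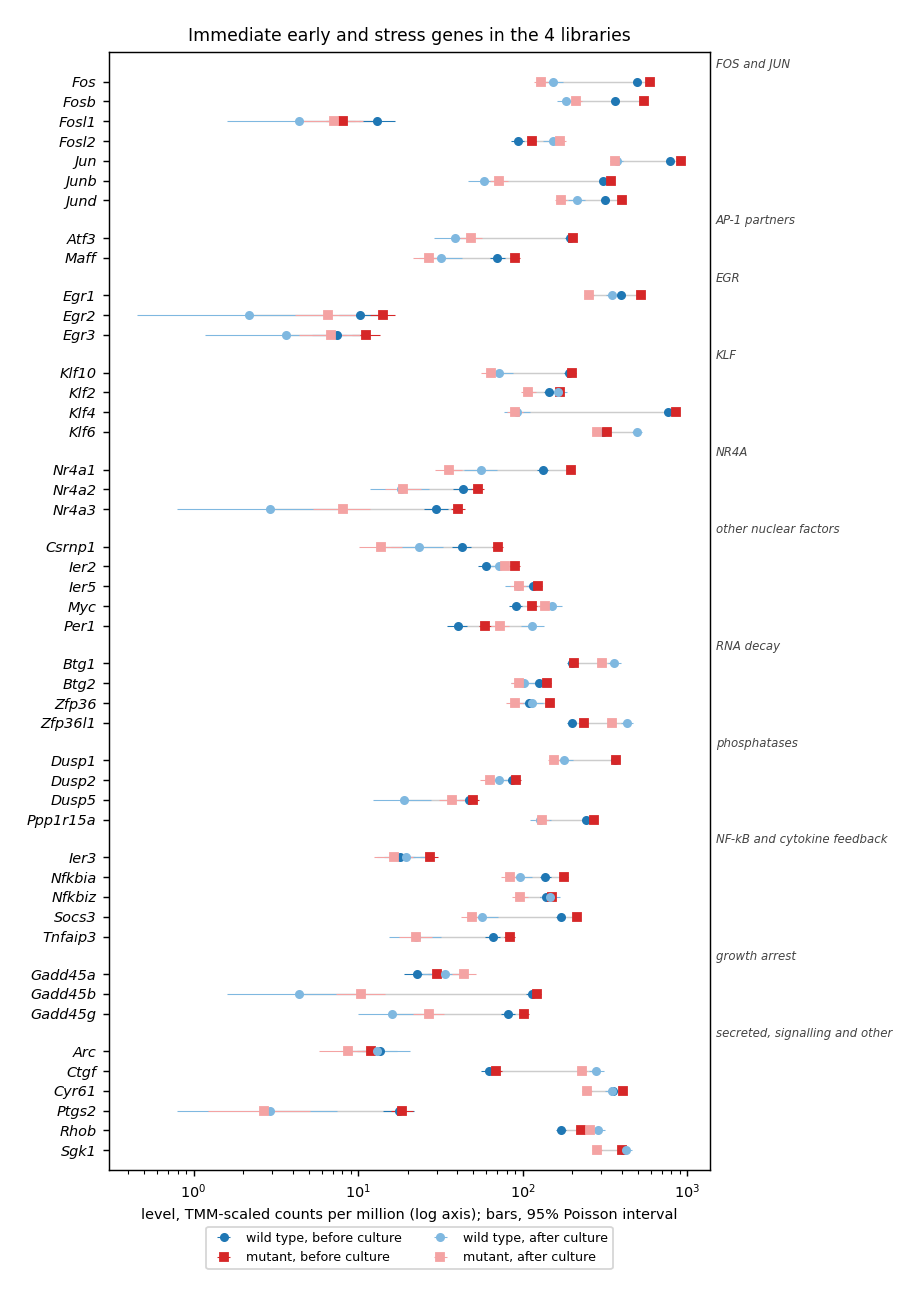
Level of each of the 46 genes in the 4 libraries, in TMM-scaled CPM on a log axis, grouped by role, with 95% Poisson intervals as bars. Klf4 lies at 766 and 856 CPM before culture and at 92.4 and 90.0 CPM after it, while Ctgf goes from 62.6 and 68.7 CPM to 280 and 228 CPM.

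Most of the genes had less RNA after culture than before it, but far from all: the fold was below 1 for 31 of the 46 in wild type and 38 in the mutant, against 51.1% and 53.8% of all genes tested. In wild type cells 11 of the 46, or 23.9%, were called lower after culture, against 4.34% of the 17154 genes tested, and 2 were called higher, against 8.17%. In mutant cells 19, or 41.3%, were called lower, against 3.46% of 18807 genes, and 1 was called higher, against 5.19%. The median log2 fold of the 46 was -0.71 in wild type and -0.88 in the mutant, beside -0.04 and -0.10 over all genes tested. The whole interval lay below 1 for 27 genes in wild type (58.7%, against 24.9% of all genes tested) and for 36 in the mutant (78.3%, against 26.9%). It lay above 1 for 9 in wild type (19.6%, against 33.9%) and for 8 in the mutant (17.4%, against 32.4%). The 46 genes have more counts than most, with a median of 599.5 in the wild type library before culture against 73 over 18949 genes. Their intervals are therefore narrower and more easily called, and the shares of all genes are not matched for counts. The 11 genes called lower in wild type were all called lower in the mutant too: Fos, Junb, Atf3, Klf4, Klf10, Nr4a3, Ptgs2, Socs3, Tnfaip3, Gadd45b and Gadd45g. Over all genes, 1.59% of 17012 were called lower in both. Ctgf was called higher in both, where the share of all genes was 4.93%. The 8 called lower in the mutant alone were Fosb, Jun, Jund, Nr4a1, Nr4a2, Dusp1, Maff and Csrnp1, and Per1 was called higher in wild type alone. Neither culture comparison called the other 25. The 8 called in the mutant alone also had folds below 1 in wild type, from 0.422 (Nr4a2) to 0.675 (Jund). Without a scaling factor all of these 8 but Csrnp1 were called lower in wild type too. Without a scaling factor the number called lower in wild type was 22, because the median of all genes then moved by -0.60 on the log2 scale; the distance of the genes' median from that of all genes was -0.67 with TMM and -0.68 without a factor. Genes with few counts weigh on the median of all genes: with a minimum of 50 counts it was 0.33 in wild type and 0.09 in the mutant, where the genes' medians were -0.57 and -0.88.

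Markers of other cells moved across the same comparisons. The 7 stromal markers summed to 3117 and 4970 CPM before culture and to 1149 and 955 CPM after it, in wild type and mutant; Col3a1, Col1a1 and Dcn were called lower in both genotypes, and Lum had no counts after culture in wild type. The 5 fat cell markers summed to 60.8 and 54.3 CPM before culture and to 554 and 417 CPM after it, with Fabp4, Pparg and Plin1 called higher in both. The 6 leukocyte markers summed to 42.9 and 46.2 CPM before culture and to 11.6 and 22.1 CPM after it, with Cd52 and Coro1a at 0 after culture in wild type. The part of these cells in the levels described here was not tested.

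**Figure D2:**
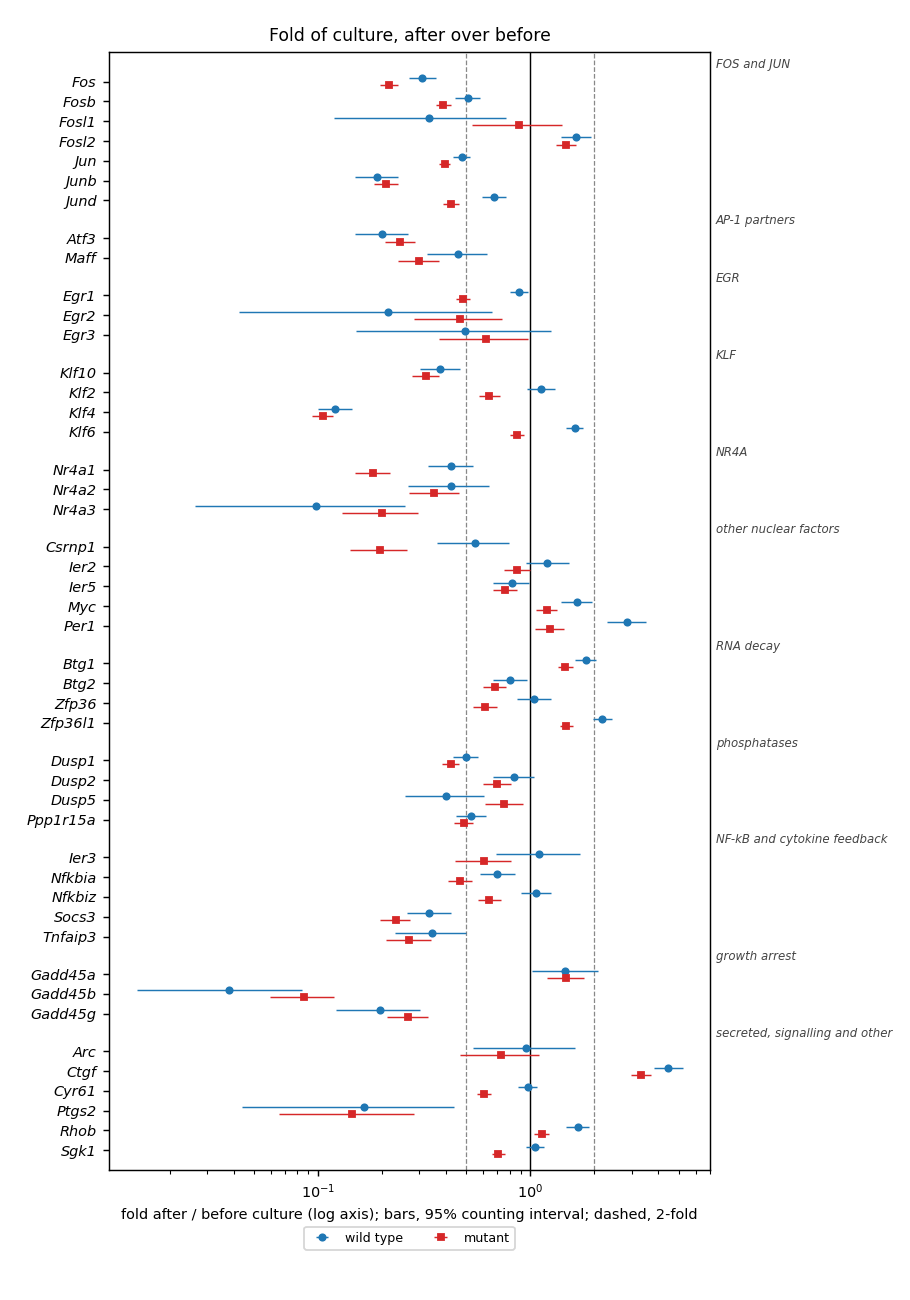
Fold of culture (after over before) for each gene in wild type and mutant cells on a log axis, with 95% counting intervals and dashed lines at 2-fold. Gadd45b lies farthest to the left in both genotypes, and Ctgf lies beyond 2-fold on the right in both genotypes.

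Among the 7 FOS and JUN genes, which encode the subunits of the AP-1 transcription factor, Junb had the lowest culture fold in both genotypes, and Fosl2 was the only member whose folds were above 1. Junb stood at 308 and 345 CPM before culture, in wild type and mutant, and at 58.2 and 72.1 CPM after it. It was 5.29-fold lower after culture in wild type (4.22 to 6.70) and 4.78-fold lower in the mutant (4.19 to 5.47). The 2 libraries before culture thus lay well above the 2 after it; Junb overlaps Prdx2 on the opposite strand, and no source used here gives the strand setting of the counting. Fos had 492, 596, 153 and 129 CPM, where the first pair of values is wild type and mutant before culture and the second pair is wild type and mutant after it, an order kept for all such series of 4 values below. It was 3.22-fold lower after culture in wild type (2.80 to 3.72) and 4.63-fold lower in the mutant (4.20 to 5.12). Fosb, a close relative of Fos, had 363, 544, 184 and 212 CPM. Its fold was 0.508 in wild type (0.443 to 0.579) and 0.389 in the mutant (0.359 to 0.421), and only the latter was called.

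Jun, the principal partner of the FOS proteins, was the most abundant of the 46 in CPM before culture, at 780 and 913 CPM, and had 371 and 361 CPM after it. Its folds were 0.476 (0.433 to 0.522) and 0.396 (0.372 to 0.420), so that the wild type interval just crossed 2-fold. Jund, a JUN gene that most cells transcribe steadily, had 315, 403, 212 and 171 CPM. Its culture folds were 0.675 (0.593 to 0.765) in wild type, not called, and 0.424 (0.387 to 0.463) in the mutant. Within a library the ratio of Junb to Jund counts was 0.977 and 0.855 before culture and 0.274 and 0.422 after it; this and the other ratios within a library below were chosen after the values were seen. Fosl2 had 92.9, 114, 153 and 167 CPM, with culture folds of 1.64 (1.39 to 1.94) and 1.47 (1.33 to 1.63), neither of them called. The ratio of Fos to Fosl2 counts went from 5.29 and 5.24 before culture to 1 and 0.768 after it. Fosl1, which encodes FRA1, was rare, at 13.0, 8.14, 4.37 and 7.18 CPM. Its counts were 4.42 to 7.29 times the expected background, and the gene overlaps Ccdc85b on the opposite strand.

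Atf3 and Maff encode partners that pair with or compete with AP-1. Atf3, a stress-induced repressor, had 192, 200, 38.6 and 48.7 CPM. It was 4.99-fold lower after culture in wild type (3.78 to 6.71) and 4.11-fold lower in the mutant (3.5 to 4.86). Maff, a small MAF protein, had 70.0, 89.8, 32.0 and 26.9 CPM, with folds of 0.457 (0.326 to 0.627) and 0.3 (0.238 to 0.373). Both genes were higher in each library before culture than in either library after it.

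The EGR genes encode zinc finger factors of the serum response. None of the 3 was called in any comparison. Egr1 had 394, 522, 349 and 252 CPM, so that its level after culture was near that before it in wild type, with a fold of 0.886 (0.8 to 0.979), and about a factor of 2.07 lower in the mutant (1.93 to 2.24). Egr2 and Egr3 were near the detection limit, at 2.18 to 14.1 CPM and 3.64 to 11.2 CPM. Their counts were 1.65 to 4.58 and 1.26 to 3.22 times the expected background, and Egr2 rested on 3 counts in the wild type library after culture.

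The KLF genes split. Klf4, a zinc finger factor of quiescent endothelium (ENSMUSG00000003032.8, chr4:55527143-55532466, GRCm38, minus strand), was 8.29-fold lower after culture in wild type (6.95 to 9.97) and 9.51-fold lower in the mutant (8.48 to 10.7), from the levels given with the plot of levels. Klf10, a TGF-beta response gene, had 191, 200, 72.0 and 64.3 CPM and was 2.65-fold lower in wild type (2.15 to 3.30) and 3.11-fold lower in the mutant (2.70 to 3.59). For both genes the libraries before culture lay far above those after it and the genotypes lay close together. Klf2, the close relative of Klf4 and like it an effector of flow, had 145, 169, 163 and 108 CPM. Its culture fold was 1.12 in wild type (0.964 to 1.31) and 0.642 in the mutant (0.571 to 0.720), neither of them called. Within a library the ratio of Klf4 to Klf2 counts was 5.29 and 5.08 before culture and 0.567 and 0.831 after it. Klf6, an injury-induced factor of endothelium, had 306, 325, 494 and 281 CPM. Its fold was 1.62 in wild type (1.47 to 1.77) and 0.863 in the mutant (0.801 to 0.929), on opposite sides of 1, and was called in neither.

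The promoters of Klf4, Fos, Fosb, Dusp1 and Socs3 are shown because these are, among the genes called lower after culture with a searched motif in the promoter, the 5 with the most counts that could be printed. RefSeq entries on GRCm38.p6 were found for 37 of the 46, and none for Fosl1, Egr1, Egr3, Ier2, Klf10, Myc, Ctgf, Nfkbiz and Arc. Each sequence runs 5′ to 3′ on the gene's strand from 250 bases before to 50 bases after the start of transcription, with matches to a motif in capitals. They lie at chr4:55532426-55532725 (minus strand, Klf4), chr12:85473640-85473939 (plus strand, Fos), chr7:19309996-19310295 (minus strand, Fosb), chr17:26508423-26508722 (minus strand, Dusp1) and chr11:117969317-117969616 (minus strand, Socs3).
Klf4: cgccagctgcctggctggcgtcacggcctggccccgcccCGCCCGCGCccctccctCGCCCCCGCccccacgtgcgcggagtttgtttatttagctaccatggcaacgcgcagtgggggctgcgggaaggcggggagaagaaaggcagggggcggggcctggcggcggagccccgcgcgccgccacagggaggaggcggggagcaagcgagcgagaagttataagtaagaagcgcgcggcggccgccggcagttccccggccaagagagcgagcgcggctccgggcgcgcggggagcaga
Fos: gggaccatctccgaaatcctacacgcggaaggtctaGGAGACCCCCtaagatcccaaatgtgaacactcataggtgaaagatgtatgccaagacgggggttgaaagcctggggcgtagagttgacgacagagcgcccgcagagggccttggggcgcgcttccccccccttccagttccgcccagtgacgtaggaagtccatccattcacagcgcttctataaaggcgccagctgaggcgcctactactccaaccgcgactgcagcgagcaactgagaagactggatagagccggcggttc
Fosb: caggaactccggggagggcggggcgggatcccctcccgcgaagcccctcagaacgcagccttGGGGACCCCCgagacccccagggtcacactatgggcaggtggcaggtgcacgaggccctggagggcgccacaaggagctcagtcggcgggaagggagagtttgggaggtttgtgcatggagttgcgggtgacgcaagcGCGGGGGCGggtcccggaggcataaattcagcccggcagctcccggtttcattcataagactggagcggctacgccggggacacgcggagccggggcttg
Dusp1: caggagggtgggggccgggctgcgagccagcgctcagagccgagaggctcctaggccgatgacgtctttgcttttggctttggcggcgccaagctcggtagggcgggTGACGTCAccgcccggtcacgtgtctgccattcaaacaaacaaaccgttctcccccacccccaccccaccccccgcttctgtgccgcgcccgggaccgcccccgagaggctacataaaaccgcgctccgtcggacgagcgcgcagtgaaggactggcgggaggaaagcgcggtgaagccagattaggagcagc
Socs3: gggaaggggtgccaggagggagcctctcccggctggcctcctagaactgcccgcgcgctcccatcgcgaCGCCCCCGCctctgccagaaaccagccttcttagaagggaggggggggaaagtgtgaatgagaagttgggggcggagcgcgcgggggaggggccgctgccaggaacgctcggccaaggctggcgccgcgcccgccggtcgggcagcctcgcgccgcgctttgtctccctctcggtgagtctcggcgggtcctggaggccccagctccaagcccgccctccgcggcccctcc
The capitals mark 2 EGR sites in Klf4, an NF-kB site in Fos, an NF-kB site and then an EGR site in Fosb, a cyclic AMP response element in Dusp1 and an EGR site in Socs3. Motifs were sought on both strands as letters only. The EGR site, GCGNGGGCG, was in 12 of the 37 promoters (32.4%), against 6.27% of the 27025 genes with a promoter entry. The NF-kB site was in 9 (24.3%), against 9.55%. The cyclic AMP response element, TGACGTCA, was in 4 (10.8%; Btg2, Dusp1, Maff and Ppp1r15a), against 2.03%. The CArG box, which serum response factor binds, was in 3 (8.11%; Dusp5, Egr2 and Zfp36), against 1.81%. The AP-1 motif, TGANTCA, was in 3 (8.11%; Csrnp1, Tnfaip3 and Zfp36l1), against 8.97%. Over 17492 protein-coding genes the shares were 8.51% for the EGR site, 10.5% for the NF-kB site and 2.54% for the cyclic AMP response element. They were 1.76% for the CArG box and 8.12% for the AP-1 motif. The median GC content was 61.3% in these promoters, 52.7% over all entries and 56.3% over protein-coding ones, and its part in the shares was not tested. A match is a description of letters, not a bound site.

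The 3 NR4A genes, which encode orphan nuclear receptors, were all called lower in the mutant and 1 of them in wild type. Nr4a1 had 132, 197, 56.0 and 35.6 CPM, with folds of 0.423 (0.330 to 0.536) in wild type and 0.181 (0.149 to 0.218) in the mutant. The mutant library was the highest before culture and the lowest after it. Nr4a2 had 43.1, 53.3, 18.2 and 18.8 CPM, with folds of 0.422 (0.267 to 0.639) and 0.354 (0.267 to 0.460). Nr4a3 had 29.7, 40.5, 2.91 and 8.07 CPM and was 10.2-fold lower in wild type (3.90 to 38.0) and 5.01-fold lower in the mutant (3.39 to 7.71). Its wild type library after culture held 4 counts, 1.25 times the expected background at the coding rate. The call in wild type was lost when that background was subtracted. At the exon rate the expected background was 0.928 counts, and the call was kept.

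The 5 other nuclear factors differed among themselves. Per1, a clock gene that glucocorticoids and CREB also switch on, had 40.1, 58.9, 114 and 72.7 CPM. It was 2.85-fold higher after culture in wild type (2.29 to 3.52), called higher, and 1.23-fold higher in the mutant (1.06 to 1.44), not called. The call was lost without a scaling factor and with upper quartile factors. Csrnp1, an AXIN1-induced nuclear factor, had 42.5, 70.6, 23.3 and 13.8 CPM. Its folds were 0.547 (0.365 to 0.796) and 0.195 (0.141 to 0.263), and only the mutant was called; it overlaps Cx3cr1 on the same strand. Myc, the growth regulator, had 90.7, 114, 151 and 137 CPM, with folds of 1.66 (1.40 to 1.96) and 1.20 (1.07 to 1.34). Ier2 ran from 59.8 to 89.9 CPM over the 4 libraries and Ier5 from 93.8 to 124 CPM. Neither was called in any comparison.

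The 4 genes that control mRNA decay and translation were not called in any comparison. Zfp36, or tristetraprolin, and Zfp36l1 bind AU-rich elements of early response mRNAs and hasten their decay. Zfp36 had 109, 145, 113 and 89.1 CPM. Zfp36l1 had 198, 237, 431 and 349 CPM, with folds of 2.18 in wild type (1.96 to 2.41) and 1.48 in the mutant (1.37 to 1.58), and was called higher in wild type when scaled with DESeq2 size factors. The ratio of Zfp36 to Zfp36l1 counts was 0.55 and 0.614 before culture and 0.264 and 0.255 after it. The antiproliferative genes Btg1 and Btg2, which act through the deadenylase complex, had culture folds on different sides of 1 in both genotypes. Btg1 had 198, 206, 360 and 301 CPM, and Btg2 had 126, 140, 101 and 95.1 CPM.

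Phosphatases that end the response came next. Dusp1, which removes phosphate from p38, JNK and ERK kinases, had 361, 366, 179 and 154 CPM. Its folds were 0.496 (0.433 to 0.567) in wild type and 0.421 (0.383 to 0.462) in the mutant, and only the latter was called; it overlaps Ergic1 on the opposite strand. Dusp2 had 86.3, 91.0, 72.0 and 63.4 CPM. Dusp5, an ERK phosphatase of the nucleus, had 47.0, 49.6, 18.9 and 37.4 CPM, so that the wild type library after culture stood apart from the other 3. Ppp1r15a, or GADD34, which directs phosphatase 1 to the translation factor eIF2 alpha, had 243, 269, 128 and 131 CPM, with folds of 0.526 (0.446 to 0.617) and 0.487 (0.439 to 0.540), and was not called; it overlaps Tulp2 on the opposite strand.

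Of the 5 feedback genes of NF-kB and cytokine signalling, Socs3 and Tnfaip3 were called lower in both genotypes and the inhibitors of NF-kB itself were not called. Socs3, which blocks signalling of the IL6 receptor family, had 169, 213, 56.7 and 49.3 CPM and was 2.98-fold lower in wild type (2.36 to 3.81) and 4.31-fold lower in the mutant (3.67 to 5.08). Tnfaip3, or A20, a ubiquitin editing enzyme, had 65.6, 83.1, 22.6 and 22.4 CPM and was 2.91-fold lower in wild type (2.01 to 4.35) and 3.71-fold lower in the mutant (2.92 to 4.76). The lower bound in wild type lay close to 2-fold, and the call there was lost with DESeq2 size factors. Nfkbia, the inhibitor that NF-kB switches on against itself, had 137, 178, 96.0 and 83.4 CPM. Nfkbiz, a nuclear cofactor, had 137, 149, 146 and 95.7 CPM, with only the mutant library after culture apart from the rest. Ier3 ran from 16.4 to 27.1 CPM.

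The 3 GADD45 genes, growth arrest and stress sensors that act on p38 and JNK kinases, did not move together. Gadd45b (ENSMUSG00000015312.9, chr10:80930073-80932204, GRCm38, plus strand) had 114 and 122 CPM before culture and 4.37 and 10.5 CPM after it, from 569, 1128, 6 and 35 counts. It was 26.2-fold lower in wild type (11.9 to 71.6) and 11.7-fold lower in the mutant (8.36 to 16.9), the lowest culture fold of the 46 in each genotype. Gadd45g had 81.5, 102, 16.0 and 26.9 CPM and was 5.09-fold lower in wild type (3.32 to 8.21) and 3.78-fold lower in the mutant (3.04 to 4.75). Gadd45a, the p53 target of the family, had 22.9, 30.0, 33.5 and 44.0 CPM, with folds of 1.46 (1.02 to 2.08) and 1.47 (1.19 to 1.80), neither of them called; without a scaling factor its fold in wild type was below 1. It overlaps a noncoding transcript on the opposite strand. The ratio of Gadd45b to Gadd45a counts went from 4.99 and 4.09 before culture to 0.130 and 0.238 after it.

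**Figure D3:**
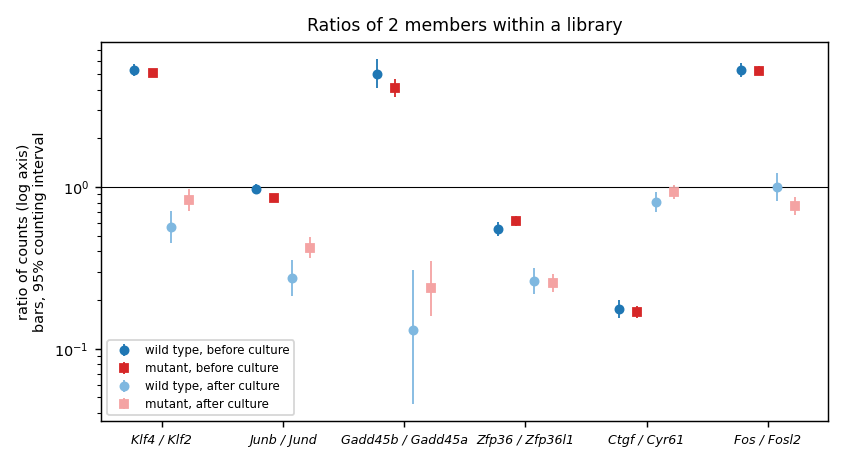
Ratio of the counts of pairs of related genes within each library, on a log axis, with 95% counting intervals. Such a ratio does not depend on scaling between libraries: Klf4 to Klf2 is 5.29 and 5.08 before culture and 0.567 and 0.831 after it, and Ctgf to Cyr61 goes from 0.176 and 0.169 to 0.809 and 0.928.

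Among the secreted and signalling genes, Ctgf was called higher in both genotypes. Ctgf, or CCN2, a matrix protein and a target of YAP (ENSMUSG00000019997.11, chr10:24595442-24598683, GRCm38, plus strand), was 4.47-fold higher after culture in wild type (3.84 to 5.21) and 3.32-fold higher in the mutant (2.98 to 3.69). Its relative Cyr61, or CCN1, also a YAP target, had 355, 406, 346 and 246 CPM. The Cyr61 fold was 0.974 in wild type (0.879 to 1.08) and 0.605 in the mutant (0.560 to 0.653), so the pair parted in both genotypes. Ptgs2, which encodes the prostaglandin synthase COX2, had 17.7, 18.6, 2.91 and 2.69 CPM and was 6.07-fold lower in wild type (2.29 to 22.8) and 6.90-fold lower in the mutant (3.55 to 15.3). It held 4 and 9 counts after culture, 1.63 and 1.21 times the expected background at the coding rate. The calls were lost when that background was subtracted. At the exon rate the expected background was 0.71 and 2.15 counts, and both calls were kept. Rhob, an endosomal GTPase, had 171, 226, 286 and 256 CPM. Sgk1, a kinase that glucocorticoids switch on, had 403, 399, 425 and 282 CPM, with the mutant library after culture below the other 3. Arc ran from 8.67 to 13.6 CPM.

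The order of the genes by level per kb of exon was close between genotypes and less so across culture. Klf4, Jun, Fos, Jund, Cyr61 and Junb led before culture, at 251, 244, 209, 189, 176 and 134 CPM per kb in wild type; Jun was ahead of Klf4 in the mutant, at 286 and 281 CPM per kb. Cyr61 and Zfp36l1 led after culture, at 172 and 144 CPM per kb in wild type and 122 and 117 CPM per kb in the mutant. Spearman's rho of the levels over the 46 genes was 0.988 between the genotypes before culture, 0.98 between them after it, and 0.710 to 0.750 between a library before and a library after culture. These are descriptions over genes, and the libraries share gene lengths and differ in depth.

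The mutant and wild type cells before culture differed little in any of these genes, and nearly all of the small differences lay on 1 side. None of the 46 was called higher or lower in the mutant, against 0.0158% and 0.0475% of 18934 genes. The fold of mutant over wild type was above 1 for 43 of the 46, against 55.2% of all genes tested, with a median log2 fold of 0.27 beside 0.04. The whole interval lay above 1 for 31 genes, or 67.4%, against 17.6% of all genes, and below 1 for Fosl1 alone, against 8.54%. The genes are more abundant than most, with a median of 599.5 counts in the wild type library before culture against 73 over 18949 genes, so their intervals are narrower. Csrnp1 had the highest fold, 1.66 (1.42 to 1.95). Ier3 at 1.52 (1.19 to 1.96), Egr3 at 1.51 (1.02 to 2.26), Ier2 at 1.5 (1.31 to 1.72) and Fosb at 1.5 (1.42 to 1.58) came next. Sgk1 at 0.989 (0.936 to 1.04) and Arc at 0.875 (0.641 to 1.20) were, beside Fosl1 at 0.624 (0.442 to 0.884), the genes with folds below 1. Without a scaling factor 33 of the 46 folds were above 1. All 7 stromal markers also had folds above 1 here, with a summed fold of 1.59, and the part of stroma in these differences was not tested. The 13 pathway lists described below had median log2 folds from -0.0006 (other dual specificity phosphatases) to 0.27 (other BTG, TOB and ZFP36 genes) in this comparison. When the receptor-based background was subtracted at the rate per coding kb, the distance of the genes' median from that of all genes went from 0.23 to 0.07.

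After culture the differences between the genotypes lay mostly the other way. Again none of the 45 genes tested was called, against 0.065% higher and 0.0731% lower of 12309 genes; Ptgs2 had too few counts. The fold of mutant over wild type was below 1 for 29 genes, against 49.7% of all genes, with a median log2 fold of -0.16 beside 0.00. The whole interval lay below 1 for 15 genes, or 33.3%, against 12.3%, and above 1 for 2, Dusp5 and Gadd45g, against 9.33%. Klf6 had the lowest fold, 0.568 (0.514 to 0.628), followed by Csrnp1 at 0.591 (0.368 to 0.959), Nr4a1 at 0.635 (0.473 to 0.858) and Per1 at 0.636 (0.518 to 0.783). Klf2 at 0.664 (0.561 to 0.788), Sgk1 at 0.664 (0.599 to 0.738) and Nfkbiz at 0.654 (0.547 to 0.785) lay close by. Dusp5 was 1.98-fold higher in the mutant (1.29 to 3.14) and Gadd45g 1.68-fold higher (1.05 to 2.82). Jun at 0.974 (0.877 to 1.08) and Klf4 at 0.974 (0.789 to 1.21) had intervals that held 1. The fat cell markers were lower in the mutant here, 417 against 554 CPM, with Adipoq called lower, and their part was not tested. In the 13 pathway lists described below the median log2 folds ran from -0.28 (other dual specificity phosphatases) to 0.05 (heat shock genes).

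**Figure D4:**
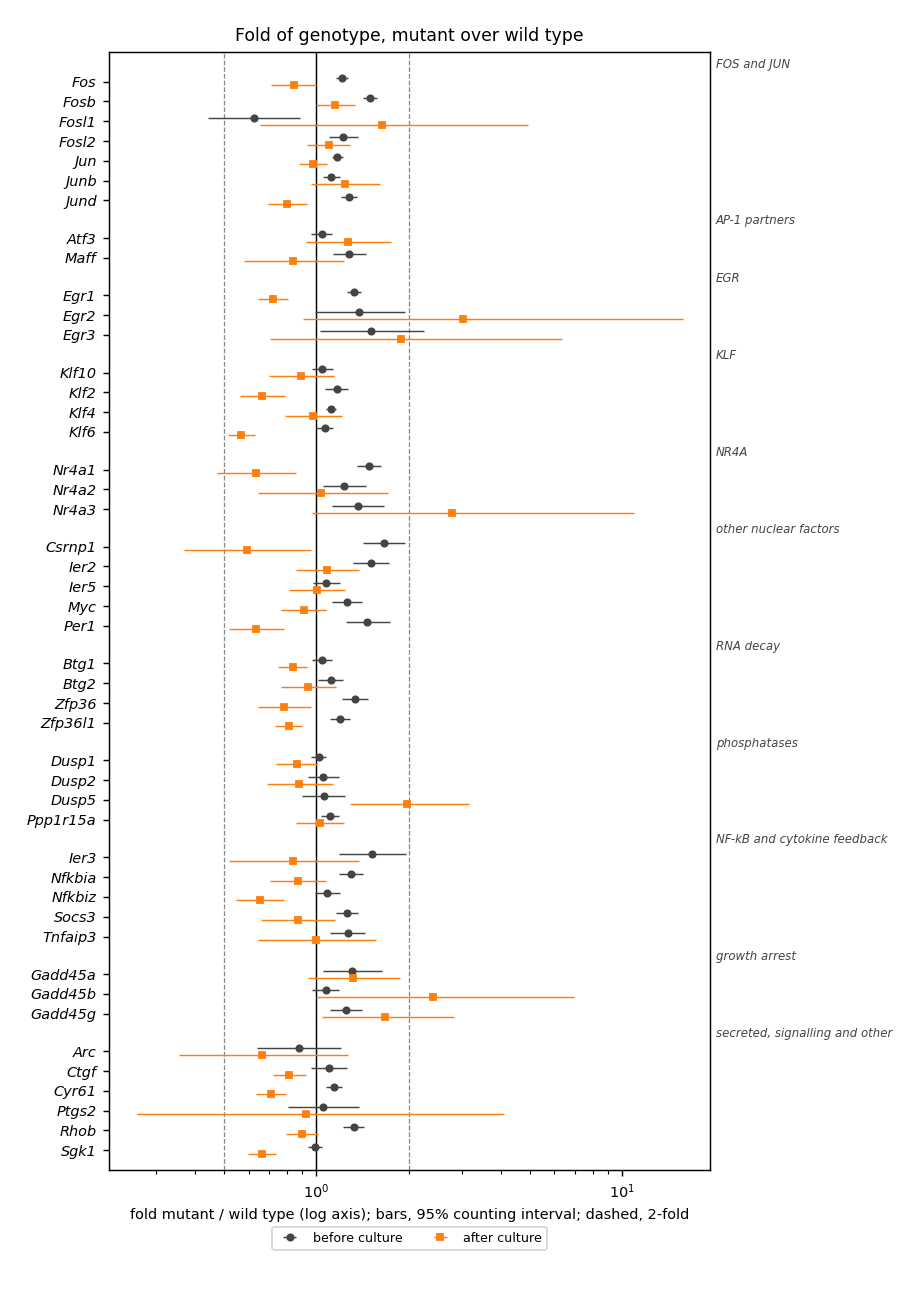
Fold of genotype (mutant over wild type) for each gene before and after culture on a log axis, with 95% counting intervals and dashed lines at 2-fold. Before culture 43 of the 46 points lie to the right of 1; after culture Klf6, Csrnp1, Nr4a1 and Per1 lie farthest to the left.

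The culture folds of the 2 genotypes were compared as the ratio of the mutant fold to the wild type fold, which by construction equals the genotype fold after culture over that before it and so restates the same 4 libraries. No gene's ratio lay wholly beyond 2-fold, against 0.147% higher and 0.135% lower of 17012 genes. The ratio was below 1 for 36 of the 46, against 51.6% of all genes, with a median of 0.776 beside 0.983. The whole interval lay below 1 for 25 genes, against 16% of all genes, and above 1 for Fosl1 and Dusp5, against 6.66%. The lowest ratios were those of Csrnp1 at 0.356 (0.221 to 0.574), Nr4a1 at 0.428 (0.317 to 0.578), Per1 at 0.433 (0.335 to 0.561), Klf6 at 0.534 (0.475 to 0.6) and Egr1 at 0.544 (0.481 to 0.616). Several genes with the lowest culture folds had intervals that held 1, among them Klf4 at 0.872 (0.706 to 1.08), Junb at 1.11 (0.852 to 1.43), Atf3 at 1.21 (0.882 to 1.67) and Gadd45b at 2.24 (0.935 to 5.35). Without a scaling factor the interval lay below 1 for 16 genes.

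**Figure D5:**
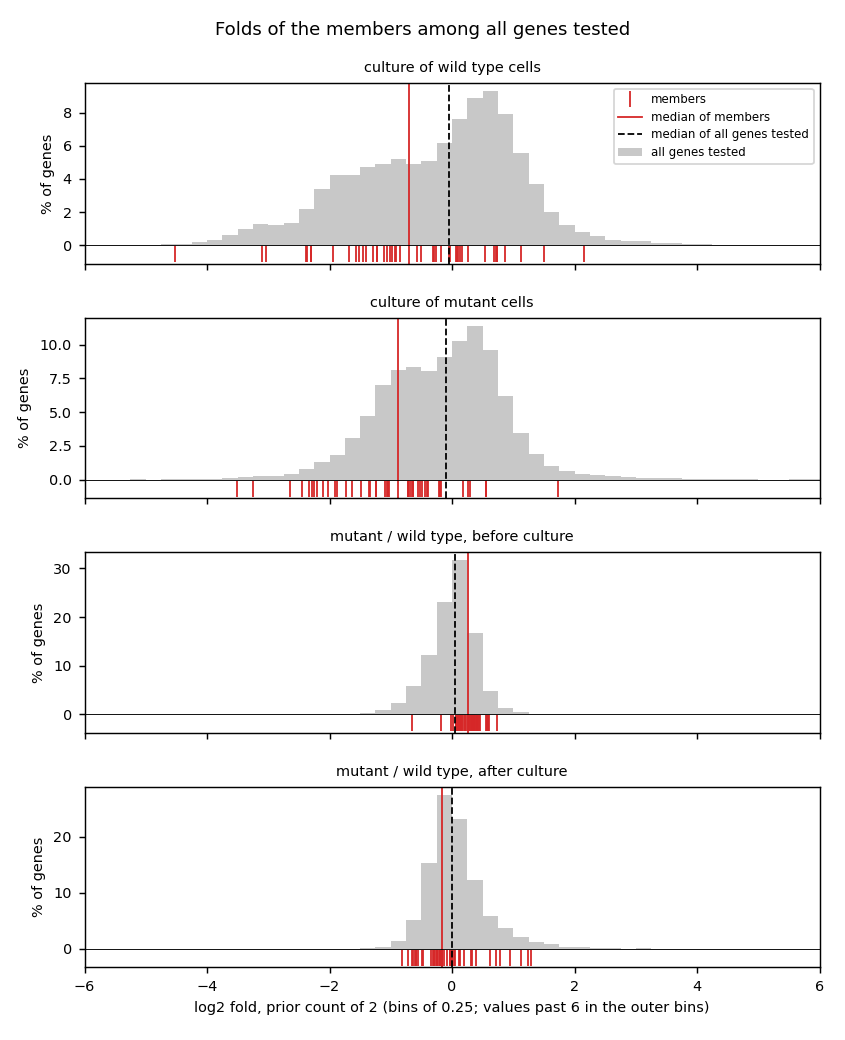
Log2 folds in each of the 4 comparisons, with all genes tested as grey bars (percent of genes in each bin), each of the 46 genes as a red tick, and both medians as lines. The genes' medians lie at -0.71 and -0.88 in the culture comparisons, at 0.27 in the genotype comparison before culture and at -0.16 after it, beside -0.04, -0.10, 0.04 and 0.00 for all genes.

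Genes that act upstream of these responses were counted in 4 lists. None of them was called lower after culture, where 4.34% of all genes were called lower in wild type and 3.46% in the mutant, shares that amount to few genes in lists of this size. Higher calls stand beside 8.17% and 5.19% of all genes. Of 12 serum response and CREB factors none was called in either genotype; Elk3, a ternary complex factor, had 394, 408, 662 and 592 CPM. Of 16 members of the MAP kinase cascade, 3 were called higher in wild type and 2 in the mutant, and none lower. Mapk3, or ERK1, was 3.87-fold higher in wild type (3.25 to 4.61) and 2.99-fold higher in the mutant (2.66 to 3.36). Of 10 subunits and kinases of NF-kB, 2 were called higher in wild type, Rela and Nfkbie, and Rela alone in the mutant, where it was 2.73-fold higher (2.42 to 3.07). The 11 genes that control Klf2 and Klf4 in endothelium all had folds above 1 in both genotypes. Over all genes tested, 48.9% in wild type and 46.2% in the mutant had folds above 1. Heg1 and Mef2d were called higher in both genotypes. Heg1, a junctional receptor, was 4.73-fold higher in wild type (4.26 to 5.27) and 3.71-fold higher in the mutant (3.45 to 3.99). The median log2 folds of these 4 lists lay between 0.47 and 0.97.

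Genes downstream of Klf2 and Klf4 in endothelium include ones that these factors are known to switch on, such as Nos3, and ones that they are known to hold down, such as Sele and Vcam1. Nos3, the endothelial nitric oxide synthase, was 5.11-fold higher after culture in wild type (4.33 to 6.03) and 3.42-fold higher in the mutant (3.08 to 3.80). S1pr1, the sphingosine phosphate receptor, was 4.36-fold higher (3.93 to 4.84) and 3.79-fold higher (3.51 to 4.09). They were the only 2 of 8 tested members called in wild type. In the mutant 3 of 9 were called, all higher, where Sele, an adhesion receptor for leukocytes, was the third, at 3.55-fold (2.92 to 4.33). Of 13 YAP and TEAD genes, Wwtr1 and Amotl2 were called higher in wild type and Amotl1 in the mutant. Of all genes, 8.17% in wild type and 5.19% in the mutant were called higher.

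Close relatives of the 46 genes were counted as well, to be read against the same shares of all genes, 8.17% and 5.19% called higher and 4.34% and 3.46% called lower. Of 8 other dual specificity phosphatases none was called lower. Dusp4 was called higher in wild type, 3.07-fold (2.42 to 3.89), and Dusp3 was called higher in both genotypes, 3.74-fold (3.30 to 4.25) and 2.72-fold (2.49 to 2.97). Of 11 other AP-1 and small MAF factors tested in the mutant none was called. Of 9 other KLF factors none was called in wild type, and Klf5, Klf11 and Klf12 were called lower in the mutant; Klf11 was 2.68-fold lower (2.11 to 3.43). None of 4 other BTG, TOB and ZFP36 genes was called. In the integrated stress response, which ATF4 leads and Ppp1r15a ends, 4 of 9 tested genes were called higher in wild type and 3 of 10 in the mutant, and none lower. Of 13 glucocorticoid and clock genes, the circle to which Per1 and Sgk1 belong, Fkbp5, Arntl, Nr1d1 and Dbp were called higher and Bhlhe40 lower in both genotypes. Of 13 heat shock genes, which also answer to dissociation, none was called in wild type and Hspb1 alone was called lower in the mutant. No gene of these 13 pathway lists was called in either genotype comparison.

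The 46 genes had, at the median, fewer exons and a shorter span than other genes, which the choice by symbol did not use. Their median number of exons was 4, against 8 over 17356 protein-coding genes with at least 20 counts in 1 library, and 16 of them (34.8%) had at most 2 exons, against 8.97%. The median span in the genome was 4153.5 bases, against 20784 bases. The range was wide, from 1 exon in Jun, Junb, Jund, Ier2, Ier5 and Rhob to 23 in Per1, and Nr4a3 spanned 41293 bases. The AU-rich heptamer TATTTAT, a letter pattern that ZFP36 proteins are known to prefer, was in the 3′ UTR of 29 of the 45 genes with one (64.4%), against 26.6% of the protein-coding genes, and 15 (33.3%) held 2 or more, against 9.30%. It was in 14 of the 19 genes called lower in a culture comparison and in 15 of the other 27, a difference given with no test. Spans, exons and UTRs are those of 1 annotated transcript per gene. The transcript used for Myc held no 3′ UTR, so Myc is counted among the 27 as without the heptamer.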

How the data were processed

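RNA was measured in 4 libraries, 1 for each genotype and culture state. Read pair counts per gene symbol are the deposited values; per the submitters' processing notes the authors used bcl2fastq, STAR, HTSeq 0.11.2 and build mm10. The names of the deposited tables state that duplicates were removed with sambamba. The kit is stranded, per the labels' protocols; no source used here gives the annotation, the strand setting or the other versions. The 5 HTSeq summary classes were kept out of totals: gene counts were 7.94%, 8.79%, 9.94% and 10.5% of all pairs, and 21.4%, 34.1%, 67.6% and 56.2% did not align (wild type and mutant before, then wild type and mutant after culture).

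Counts were scaled with TMM in edgeR 4.0.16 (R 4.3.3; factors 1.25, 1.16, 0.811 and 0.851). Levels have exact Poisson intervals, and folds have Clopper-Pearson intervals at 95%. Genes with at least 20 counts in 1 of the 2 libraries were tested, log2 medians use a prior count of 2, and a gene with no counts is given 3 for its bound. DESeq2 1.42.0 served for size factors only. Gene positions, exons and UTRs are those of GENCODE vM21 on GRCm38, the assembly of mm10, and promoters are from RefSeq. Tested on simulated data, the call found 73.5% of genes with a true 4-fold difference in the wild type culture comparison (15996 genes). In that of the mutant it found 82.0% (18119 genes), with at most 1 false call in each. The simulated counts held Poisson error only, and all libraries shared the same gene composition apart from the changed genes. The simulation therefore cannot give the rate of false calls in these libraries.

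Every listed gene was described; from each of 13 pathway and 4 marker lists, up to 4 called genes with the most counts could be named, or 2 where none was called. The calls of the AP-1 and small MAF list in wild type are not reported here. The genes and lists were chosen with earlier results of these data known. Alternatives were other scalings, count minimums of 10, 50 or none, prior counts of 0.5 and 5, a 1.5-fold call, and background subtraction at the exon rate or, chosen after seeing the data, the coding rate.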

Additional observations from a re-analysis of the deposited data

Results flagged for a closer look

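In 11 genes the mutant library lay above the wild type before culture and below it after culture, with each counting interval wholly on its side of 1. The difference between the 2 states was not tested, since each group holds 1 library. The folds of mutant over wild type before and after culture were 1.21 and 0.842 for Fos, 1.28 and 0.804 for Jund, and 1.32 and 0.721 for Egr1. They were 1.16 and 0.664 for Klf2, 1.06 and 0.568 for Klf6, and 1.48 and 0.635 for Nr4a1. Zfp36 had 1.34 and 0.785, Zfp36l1 had 1.20 and 0.811, and Cyr61 had 1.14 and 0.709. Csrnp1 had 1.66 and 0.591, and Per1 had 1.47 and 0.636. With upper quartile factors 8 genes met this description and without a scaling factor 6 did: Jund, Egr1, Nr4a1, Zfp36l1, Cyr61 and Per1. In both of these scalings the fold of Klf6 before culture was below 1.

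Klf6 also had culture folds on opposite sides of 1, 1.62 in wild type and 0.863 in the mutant, a difference that was not tested.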

How the results depend on the processing

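No called fold changed sides of 1. Without a scaling factor, 1 gene was called higher and 22 lower in the wild type culture comparison, with median log2 folds of -1.32 there and -1.33 in the mutant. With upper quartile factors the numbers were 1 and 20, and the medians -1.15 and -1.21. These scalings moved the median of all genes by -0.60 and -0.43 in the wild type culture comparison and by -0.43 and -0.32 in the mutant. They also turned the uncalled culture folds of Myc, Rhob and Per1 in the mutant and the genotype fold of Klf6 before culture below 1, and having no factor did so for the culture fold of Gadd45a in wild type. A 1.5-fold call gave 4 higher and 20 lower in wild type culture and 1 lower, Klf6, between genotypes after culture. For ratios of mutant to wild type culture folds, the whole interval lay below 1 in 16 genes without a scaling factor, and above 1 in 1 gene with DESeq2 size factors and with coding rate background subtraction, the latter chosen after seeing the data. That subtraction ended the culture calls of Ptgs2 in both genotypes and of Nr4a3 in wild type, and added Jun, Nr4a1 and Dusp1 in wild type and Egr1 and Nfkbia in the mutant. The count minimums, the prior counts and subtraction at the exon rate kept the number of genes called in each comparison within 1.5 times. No paired analysis was possible because each group holds 1 library; for the same reason no replicate could be left out. Genes with few counts after culture (Egr2, Egr3, Nr4a3, Ptgs2, Fosl1, Arc) are limited by depth and background.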
